A study of Mus musculus with 20 samples.

Results

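Accessible regions on mouse chromosomes 3, 4 and 15 were compared between Setd2 knockout (KO) and wild-type (WT) C2C12 myoblasts. Peaks of all 20 libraries were merged at 1 bp overlap, and the members were the 17608 of 101352 merged regions on these chromosomes: 5459 on chromosome 3, 6309 on chromosome 4 and 5840 on chromosome 15. The chromosomes were selected on measured values of these data: the within-list rank and the share of peaks of KO against WT libraries, which an earlier comparison had placed higher in KO. The D0 and D1 values below are therefore descriptions without a test. Tests were made for D5 of KO_2 and for the contrasts of medium and day, the latter also for a difference between genotypes.

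C2C12 cells were sampled on D0, and on D1 and D5 in either control medium (CTL) or methionine restriction (MR), with 2 WT replicates in each of these 5 conditions. The KO libraries came from the Setd2 KO lines KO_1 and KO_2, with 1 library of each line in each condition. C2C12 is an established mouse myoblast line, and the series concerns methionine supply and H3K36 trimethylation while cells differentiate. Each KO line stands for itself, so a difference between a line and WT cannot be told apart from other differences between that line and WT. How the lines were derived, and whether replicates were separate cultures, is not given in the sources used here, so p-values measure only the spread between these libraries.

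ATAC-seq marks open chromatin by the sites at which a transposase can insert adapters into DNA. A peak's strength follows how often its DNA was cut, and so it follows both how open a site is and how many copies of it a cell carries. These cannot be told apart in peak lists. Setd2 places the trimethyl mark on lysine 36 of histone H3 along transcribed genes, a mark tied to transcript elongation, splicing and genome stability.

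The lists held 644 to 69881 peaks. The shortest were the D5 lists of KO_1, with 644 peaks in CTL and 1881 in MR, and they are described apart from the rest. In the other 18 lists, 19.8% to 35.2% of peaks lay within 1 kb of an end of a protein-coding gene, called gene-end peaks here. Gene-end peaks were called in all 12 D0 and D1 libraries at the myoblast genes Myod1, Des and Cdh15 and in none at Myf5 and Pax7. Myog had such a peak in 4 of 6 WT and 0 of 6 KO libraries, and Chrng in 6 WT libraries, 3 of KO_1 and 1 of KO_2. Among mesenchyme genes Col1a1 was called in all 12, Thy1 in 1 library of KO_1 only and Pdgfra in none. Of the 3 myoblast genes called throughout, Des ranked below both WT libraries of each condition in both lines (26.3 to 35.5 in KO_1, 33.2 to 83.3 in KO_2 and 81.3 to 96.3 in WT, on the percentile scale explained next). Myod1 lay at 0.318 to 4.74 in KO_2 and 6.13 to 23.3 in KO_1, against 22.4 to 55.8 in WT. Cdh15 lay at 11.7 to 53.7 in KO_1, lowest in MR, and at 37.9 to 63.5 in KO_2, against 52.9 to 79.0 in WT. It was below both WT libraries of each condition in KO_1 but not in KO_2. The part of these marker differences in the results below was not tested.

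Strength was compared by rank. The 19629 regions called in all 12 D0 and D1 libraries were ranked in each library by the authors' −log10 p-value, as percentiles from 0 to 100, and 3547 of them were members (1064 on chromosome 3, 1207 on chromosome 4, 1276 on chromosome 15). Since the same regions are ranked in every library, the length of a list does not enter the percentile scale. It does enter the choice of regions, which must be called in the shortest of these lists too (KO_2 at D0, 30629 peaks). Ranked regions were 19.5% of the regions of chromosome 3, 19.1% on chromosome 4 and 21.8% on chromosome 15, against 19.4% over all chromosomes. The ranked members are 20.1% of the members, and the share of ranked regions at gene ends was 30.8%, against 33.1% over all chromosomes. Windows of 10 Mb with at least 20 ranked regions were called raised where the KO library's mean rank lay above both WT libraries in each of the 3 conditions, and lowered where it lay below both in each.

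Promoters of 3 genes are shown because they carry gene-end regions that moved in every D0 and D1 library of KO_2 and because the pair on chromosome 4 moved in opposite directions. Eno1 encodes the glycolytic enzyme enolase, Cdc42 a small GTPase of the actin cytoskeleton and Ep300 a histone acetyltransferase. Each runs from 250 bases before to 50 bases after the annotated start, 5′ to 3′ on the gene's strand, from RefSeq on GRCm38.p6. Capitals mark CANNTG, the E-box read by myogenic factors such as MyoD, searched on both strands with overlaps allowed.
Eno1, chr4:150236458-150236757, plus strand: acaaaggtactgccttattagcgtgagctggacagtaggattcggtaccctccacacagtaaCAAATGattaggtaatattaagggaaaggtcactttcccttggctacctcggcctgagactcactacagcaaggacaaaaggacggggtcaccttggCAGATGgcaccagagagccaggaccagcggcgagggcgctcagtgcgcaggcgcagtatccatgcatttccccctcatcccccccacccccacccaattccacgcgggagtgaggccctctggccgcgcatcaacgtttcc
Cdc42, chr4:137357710-137358009, minus strand: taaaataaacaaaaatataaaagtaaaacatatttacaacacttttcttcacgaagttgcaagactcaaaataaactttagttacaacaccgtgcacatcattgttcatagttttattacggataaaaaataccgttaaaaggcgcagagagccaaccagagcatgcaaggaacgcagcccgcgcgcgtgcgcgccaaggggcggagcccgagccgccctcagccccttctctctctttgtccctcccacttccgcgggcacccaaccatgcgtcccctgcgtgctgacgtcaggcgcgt
Ep300, chr15:81585964-81586263, plus strand: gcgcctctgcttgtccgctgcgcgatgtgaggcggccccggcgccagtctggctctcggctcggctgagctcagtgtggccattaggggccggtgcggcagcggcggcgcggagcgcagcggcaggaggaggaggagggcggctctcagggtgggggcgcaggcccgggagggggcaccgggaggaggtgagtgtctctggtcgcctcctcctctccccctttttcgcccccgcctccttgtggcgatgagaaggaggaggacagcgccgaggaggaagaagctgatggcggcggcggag
The Eno1 window held 2 matches and the windows of Cdc42 and Ep300 held 0. Of 4623 RefSeq promoter windows of this length on the 3 chromosomes, 71.1% held at least 1 match, against 72.3% of all 32817 windows searched. The motif TGANTCA was in 7.83% of the former and 7.81% of the latter.

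At the Ep300 promoter (region chr15:81584984-81586703) the rank in KO_2 was 75.8 at D0, 55.3 on D1 with control medium and 61.5 on D1 with restriction. The 6 WT libraries ranked it between 24.4 and 41.5, so KO_2 lay above every WT library, by 27.9 points on average. KO_1 ranked it at 43.5, 57.7 and 30.0 in the same order, above both WT libraries at D0 and in CTL and below both in MR. At Eno1 (chr4:150236592-150237487) KO_2 reached 92.9, 82.9 and 87.3, and WT gave 85.7 and 77.4 at D0, 78.7 and 72.9 in CTL, and 61.6 and 66.7 in MR, so KO_2 was above both in each condition. KO_1 ranked the Eno1 region at 82.2, 68.0 and 70.2, between the WT libraries at D0, below both in CTL and above both in MR. At Cdc42 (chr4:137357599-137357850) KO_2 lay at 16.6 at D0 and at 78.0 and 73.3 at D1, against 80.2 to 94.0 in WT. There KO_1 lay at 97.3 at D0, above WT, and at 72.7 and 68.0 at D1, below WT and KO_2.

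Chromosome 15 stood highest of all 20 chromosomes in KO_2. Its regions had a mean rank of 58.2 at D0, 55.8 on D1 with control medium and 57.3 on D1 with restriction. The WT replicates gave 52.6 and 52.7 at D0, 51.1 and 50.9 in CTL, and 50.1 and 49.8 in MR. KO_2 lay above both WT libraries in each condition, by 5.53, 4.84 and 7.42 points, and the largest gap between WT replicates on this chromosome was 0.267. Ranked within the whole list of each library, where all ranked regions together differed by −7.96 points in KO_2, chromosome 15 differed by −2.91 points and chromosome 3 by −3.74, so both lay below WT on that scale and 5.05 and 4.23 points above the shift of all regions. In KO_1 the means were 53.8, 53.8 and 53.7, above WT by 1.10, 2.80 and 3.77 points, the second highest chromosome of that line. The mean over the 3 conditions was 5.93 in KO_2 and 2.56 in KO_1.

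Chromosome 3 was second in KO_2. Mean ranks were 53.9 at D0, 53.4 in CTL and 54.1 in MR, while the 6 WT libraries lay between 48.9 and 49.3. The difference was 4.89, 4.30 and 5.02 points. KO_1 gave 48.3, 50.3 and 50.3, which is 0.737 points below WT at D0 and 1.19 and 1.299 above at D1, so chromosome 3 was not raised throughout in that line and ranked 8 of 20. The next chromosome in the order of KO_2, chromosome 6, had a mean difference of 2.77.

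Chromosome 4 was raised in KO_1 and not in KO_2. KO_1 had mean ranks of 53.3, 53.3 and 53.4, against 49.8 to 50.7 over the 6 WT libraries, a difference of 3.42, 2.78 and 3.41 points and the highest of 20 chromosomes in that line. KO_2 had 49.4, 50.3 and 49.0, below both WT libraries in each condition, by a mean of 0.58 points (difference −0.584). The 2 lines thus differed in the sign of the chromosome 4 mean. By rank, the label raised in KO held for chromosomes 3 and 15 in KO_2 and for chromosomes 4 and 15 in KO_1. The share of peaks, given below, ordered KO_1 differently: chromosome 3 was number 2 of 20, chromosome 4 number 7 and chromosome 15 number 9. Both lines are compared with the same WT libraries.

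**Figure D1:**
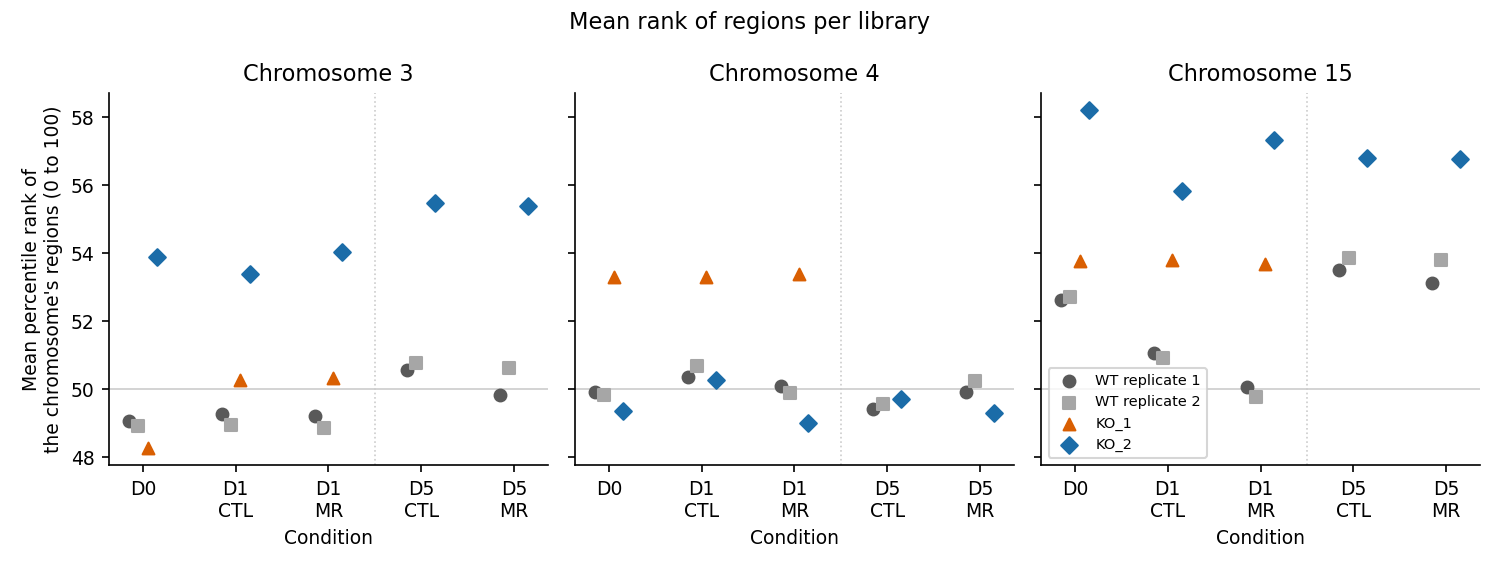
Mean percentile rank (y axis, 0 to 100) of the ranked regions of chromosomes 3, 4 and 15 in each library, by condition (x axis). Points are single libraries of WT replicates 1 and 2, KO_1 and KO_2; D0 and D1 share 1 set of ranked regions and D5, right of the dotted line, has its own, without KO_1. KO_2 lies above both WT libraries in all 5 conditions on chromosomes 3 and 15, and KO_1 lies above them at D0 and D1 on chromosome 4.

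In windows the rise in KO_2 was spread over most of chromosomes 3 and 15. The first 10 Mb of chromosome 3 had a mean difference below 0 but was not lowered by the rule, since KO_2 lay between the WT libraries at D0. On chromosome 15, 10 of 11 windows were raised and 0 lowered, on chromosome 3, 11 of 15 and 0, whereas over the genome 33.1% of 236 windows were raised and 28.8% lowered in KO_2. These counts use the values that chose the chromosomes. The window means of KO_2 were above 0 in 11 of 11 windows of chromosome 15 (lowest 1.49 at 20 to 30 Mb, median 6.21, highest 14.4 at 40 to 50 Mb) and in 14 of 15 of chromosome 3 (lowest −2.23 at 0 to 10 Mb, median 4.30, highest 10.6 at 30 to 40 Mb). In the window of chromosome 15 at 40 to 50 Mb, which held 20 ranked regions, KO_2 had a mean rank of 60.5, 57.6 and 61.3 where WT had 40.3 to 49.9. In the window of chromosome 3 at 30 to 40 Mb KO_2 had 58.5, 55.1 and 57.8, against 44.4 to 48.9 in WT. The median gap between WT replicates in a window was 0.820 points over the 40 member windows, with a largest of 5.42, and over all 236 windows 0.954 and 7.52.

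Chromosome 4 was split in KO_2. Of 14 windows 6 were raised and 6 lowered. All 5 windows from 110 Mb to the end were lowered, and the 6 raised ones lay before 110 Mb, as did 1 lowered window at 30 to 40 Mb (−1.17). The means fell from 8.22 at 80 to 90 Mb to −1.70 at 110 to 120 Mb, −4.06 at 130 to 140 Mb and −7.55 at 150 to 160 Mb. With the border set at 110 Mb after these values were seen, the 573 ranked regions before it lay 3.40, 2.78 and 2.32 points above WT at D0, D1 in CTL and D1 in MR. The 634 regions from it on lay below WT, with differences of −4.06, −3.00 and −3.96 points. The gap between WT replicates was at most 0.781 points in either part. In 5 Mb windows 5 of the 10 before 110 Mb were raised in KO_2 and 1 was lowered (5 to 10 Mb, −2.12). The last raised window was 105 to 110 Mb, and the only window after it with a mean above 0 was 125 to 130 Mb (0.140). The mean near 0 of the whole chromosome in KO_2 thus joined a proximal part that was higher on average, though not in every window, and a lower distal part.

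In KO_1 the pattern was less even. On chromosome 4 all 14 window means were above 0, from 0.217 at 120 to 130 Mb to 13.6 at 80 to 90 Mb, and 6 of 14 windows were raised. Over the genome 21.6% of windows were raised and 22.5% lowered in KO_1. The 80 to 90 Mb window had mean ranks of 46.6, 54.2 and 56.1 in KO_1 and 49.6, 45.4 and 45.8 in KO_2, against 36.7 to 41.1 in WT, so both lines lay above WT there. The ranked regions before 110 Mb lay 1.70, 5.75 and 6.21 points above WT in KO_1, and those from 110 Mb on 4.98, 0.0995 and 0.882. Chromosome 15 had 3 of 11 raised windows in KO_1, highest at 10 to 20 Mb (10.7) and lowest at 100 to 110 Mb (−0.928). Chromosome 3 had 3 of 15 raised and 1 lowered, from −6.27 at 0 to 10 Mb to 4.28 at 100 to 110 Mb.

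These counts depended on the D0 library of KO_1. Across the 40 member windows, the KO_1 difference at D0 and that at D1 in CTL had a Pearson r of 0.108, and the 2 media at D1 had 0.817. KO_2 gave 0.833, 0.869 and 0.817 for its 3 pairs of conditions. These are descriptions over windows of the same libraries. In the D0 library of KO_1, gene-end regions ranked high against WT and the others low over all chromosomes, by 7.87 and −3.90 points. The values were 11.2 and −0.459 on chromosome 4, 8.88 and −1.83 on chromosome 15, and 7.46 and −4.65 on chromosome 3. In KO_2 the order was the other way at D0, with −4.50 at gene ends and 2.23 elsewhere over all chromosomes. On chromosome 15 it was 2.53 and 6.66. Without the D0 libraries, a looser rule of 2 conditions, KO_1 had raised windows at 53.3% on chromosome 3, 64.3% on chromosome 4 and 72.7% on chromosome 15, against 39.8% of all 236 windows. Over the genome, r between D0 and D1 in CTL of KO_1 was 0.493.

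**Figure D2:**
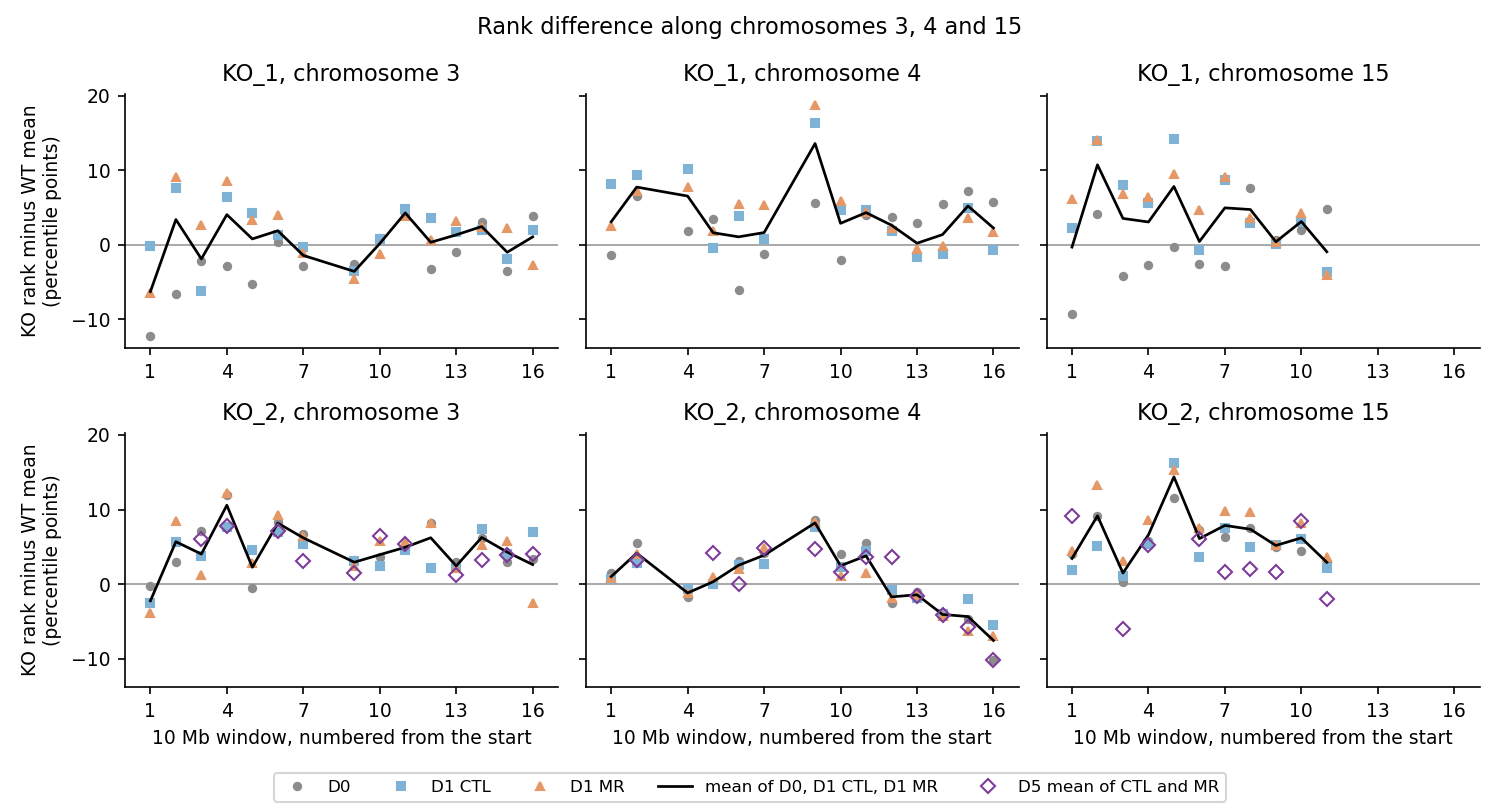
Difference between the KO library's mean rank and the mean of the 2 WT libraries (y axis, percentile points) in 10 Mb windows numbered from the start of the chromosome (x axis), for KO_1 (upper row) and KO_2 (lower row). Filled points are D0, D1 CTL and D1 MR, the line is their mean and open diamonds are the D5 mean of KO_2. The D0 and D1 mean of KO_2 lies above 0 in 14 of 15 windows of chromosome 3 and 11 of 11 of chromosome 15, and on chromosome 4 it is negative in window 4 (−1.17) and from window 12 on, ending at −7.55, whereas the D5 mean is still positive in window 12 (3.68) and negative in 2 windows of chromosome 15.

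Single regions followed the windows in part. On chromosome 15, 384 of 1276 ranked regions (30.1%) lay above both WT libraries in all 3 conditions in KO_2, on chromosome 3 276 of 1064 (25.9%) and on chromosome 4 240 of 1207 (19.9%), against 18.7% of all ranked regions. In KO_1 the shares were 18.8%, 17.01% and 23.3% in the same order, against 17.4%. Most regions of the raised chromosomes thus did not lie above WT throughout.

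Regions raised in both lines made up 7.61% of the ranked regions of chromosome 3 (81), 8.12% on chromosome 4 (98) and 9.09% on chromosome 15 (116), against 6.26% of all 19629. The 4 with the largest differences on each chromosome lay away from gene ends. On chromosome 15 the first of 116 such regions, 365 bp long, was chr15:78215258-78215622, 8858 bp from Pvalb, which encodes the calcium-binding protein parvalbumin. Its WT ranks were 3.11 and 0.909 at D0, 14.7 and 0.767 in CTL, and 22.0 and 23.2 in MR. KO_1 reached 91.0, 84.4 and 94.3, and KO_2 78.7, 70.8 and 76.6, so no KO library overlapped with WT. At D5 this region was called in both KO_2 libraries and in the 2 WT libraries in MR only. The others were chr15:61308969-61309253, 387699 bp from A1bg, a region in Ext1, which encodes an enzyme of heparan sulfate synthesis (chr15:53170354-53170573), and a region in Col22a1, a collagen gene of tissue junctions (chr15:71869838-71870136). Their mean differences over the 6 KO libraries were 60.5, 59.8 and 57.0 points.

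On chromosome 3 the first of 81 regions raised in both lines was chr3:63439774-63440024, 41071 bp from Strit1, the gene of a muscle micropeptide that acts on the calcium pump. WT ranks were 25.6 and 6.10 at D0, 13.9 and 2.21 in CTL, and 7.16 and 0.0841 in MR. KO_1 gave 58.5, 78.0 and 76.4 and KO_2 83.3, 93.7 and 59.7. Every KO library lay above every WT library. The regions near Tacr3 (chr3:134763612-134764028), Setd7, a lysine methyltransferase gene (chr3:51593442-51593892), and Gm5148 (chr3:38076866-38077163) had mean differences of 62.5, 59.7 and 55.0 points. The one near Tacr3 was called at D5 in both KO_2 libraries and in 0 of 4 WT libraries.

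On chromosome 4 the first of 98 was chr4:83974683-83974950, 108540 bp from Ccdc171 and inside the 80 to 90 Mb window. WT ranks were 20.7 and 22.9 at D0, 33.9 and 7.79 in CTL, and 21.2 and 19.2 in MR. KO_1 reached 93.1, 82.0 and 85.9, and KO_2 93.0, 88.6 and 95.9. The 3 that followed lay near Zbtb40 (chr4:137136404-137136699), near Trabd2b (chr4:114386424-114386831) and in Epb41l4b (chr4:57139411-57139815), with mean differences of 63.6, 58.7 and 55.6 points. The first 2 of these lie in the distal part that was lowered in KO_2, and KO_2 ranked the region near Trabd2b at 13.95 at D0, where WT had 11.8 and 9.63.

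Some member regions were called only in KO lists at D0 and D1. In KO_2, 48 regions of chromosome 3, 47 of chromosome 4 and 46 of chromosome 15 were called in all 3 KO libraries and in 0 of 6 WT libraries, which is 1.09%, 0.916% and 0.952% of the regions called in at least 1 of these libraries, against 0.775% over the genome. In KO_1 the counts were 269, 259 and 246 (5.17%, 4.25% and 4.40%), against 4.14%. The opposite calls, in all 6 WT libraries and in none of KO_2, were more frequent, with 107, 213 and 124 regions (2.43%, 4.15% and 2.57%), against 3.77% over the genome. For KO_1 they were 65, 70 and 83 (1.25%, 1.15% and 1.49%), against 1.78%. Such calls depend on list length: D0 and D1 lists held 30629 to 46664 peaks in KO_2, 48460 to 63530 in KO_1 and 43058 to 69881 in WT. The part of list length in these counts was not tested. Of the regions called only in KO, both lines shared 90, 63.8% of the 141 of KO_2 and 11.6% of the 774 of KO_1. At D5, which did not enter this choice, the 141 regions of KO_2 were called at 75.9% in KO_2 in CTL and 55.3% in MR, and at 0% to 2.84% in the 4 WT libraries. The corresponding regions of KO_2 on other chromosomes, 509 in number, were called at 69.5% and 49.5% in KO_2, so the members were close to the rest of the genome.

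The strongest of those shared by both lines lay far from genes. On chromosome 15 they were chr15:60377171-60377670, 360553 bp from 4933412E24Rik, and chr15:29568518-29568689, 603845 bp from Ctnnd2, which encodes a catenin of neuronal junctions. The first stood at the 98.8, 99.5 and 99.6 percentile of the KO_2 lists and at 72.4, 89.1 and 88.5 in KO_1. On chromosome 3 they were chr3:134730944-134731104, 97903 bp from Tacr3, and chr3:147183705-147183905, 199696 bp from Ttll7. On chromosome 4 they were chr4:21195731-21195934, 415022 bp from Nkain3, and chr4:30610530-30610756, 1352736 bp from Map3k7, which encodes a kinase of TGF-β and cytokine signalling. All 6 were called in both D5 libraries of KO_2 and in 0 of 4 WT libraries at D5. Their strength was not always kept: chr15:60377171-60377670 stood at the 72.2 percentile in CTL and 1.69 in MR. Of all 90 shared members, KO_2 called 83.3% in CTL and 62.2% in MR at D5, and WT libraries 0% to 4.44%. For the 268 shared regions of other chromosomes KO_2 called 81.0% and 61.2%, so the members were close to the rest of the genome.

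The share of peaks gave a second view, which also counts regions that were not ranked. Chromosome 3 held 5.80% of the peaks of KO_2 at D0 (1778 of 30629, Wilson 95% interval 5.55% to 6.07%), 5.75% at D1 in CTL and 5.81% in MR. The WT libraries held 4.85% to 5.14% and KO_1 5.38%, 5.57% and 5.50%. Both lines lay above every WT library, and chromosome 3 had the highest share ratio of 20 chromosomes in KO_2 (mean log2 ratio 0.21) and the second highest in KO_1 (0.14), although its ranks were near WT in KO_1. Chromosome 15 held 6.90%, 6.38% and 6.58% in KO_2, against 5.57% to 5.97% in WT and 5.85% to 6.03% in KO_1, with log2 ratios of 0.20 and 0.04. By this ratio it was number 3 of 20 in KO_2, just behind chromosome 16 (0.20). In KO_1 it was number 9, and chromosome 13 was first (0.19). Chromosome 4 held 6.11% to 6.20% in KO_2, 6.42% to 6.57% in KO_1 and 6.20% to 6.33% in WT. Intervals cover counting error of peaks only: they treat peaks as independent draws and leave out the spread between libraries.

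**Figure D3:**
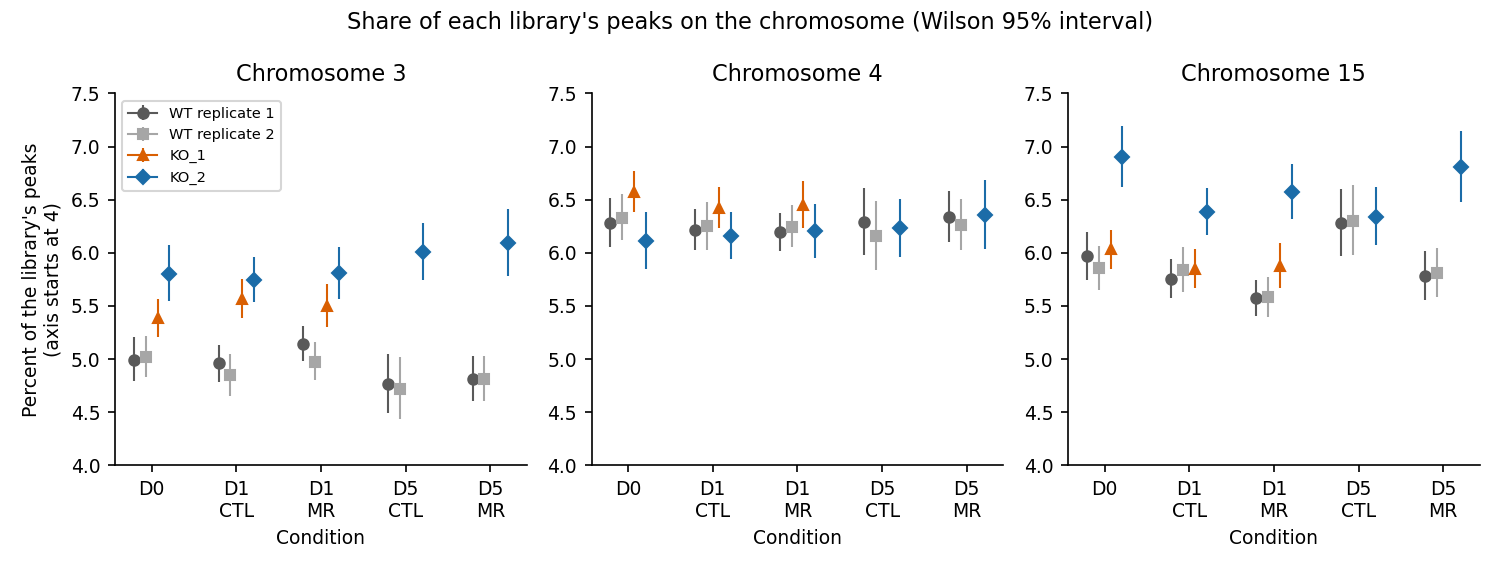
Percent of each library's peaks on chromosomes 3, 4 and 15 (y axis, from 4) by condition (x axis); points are single libraries and bars the Wilson 95% interval of the share. The short D5 lists of KO_1 are left out. On chromosome 3 KO_2 lies between 5.75% and 6.09% and every WT library between 4.72% and 5.14%.

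Shares were also compared along the chromosomes. Windows with at least 20 peaks in every library were called higher where the KO share lay above both WT libraries in all 3 conditions: in KO_2 13 of 16 on chromosome 3, 8 of 15 on chromosome 4 and 9 of 11 on chromosome 15, against 36.7% of 256 windows. In KO_1 the counts were 9, 7 and 6, against 36.7% as well. Lower shares in KO_2 were found in 3 windows of chromosome 4, against 26.2% of all windows, and in 0 on the other chromosomes. The window of chromosome 4 at 20 to 30 Mb held 0.111%, 0.116% and 0.122% of the peaks of KO_2, 0.101%, 0.110% and 0.0949% of those of KO_1 and 0.0465% to 0.0615% in WT, log2 ratios of 1.10 and 0.91. The window of chromosome 15 at 40 to 50 Mb, which holds 17 protein-coding genes, had log2 ratios of 0.87 in KO_2 and 0.90 in KO_1, and that of chromosome 3 at 150 to 160 Mb, with 38 genes, 0.50 and 0.84. The 150 to 160 Mb window of chromosome 4, with 106 genes, had −0.40 and −0.16.

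Across the 40 member windows with enough ranked regions, the log2 share ratio and the number of protein-coding genes had a Pearson r of −0.605 in KO_2 and −0.593 in KO_1. Over 236 windows of the genome it was −0.210 and −0.373, and on chromosome 3 alone −0.342 and −0.428. Few genes did not always go with a higher share: the 0 to 10 Mb window of chromosome 3, with 15 genes, had log2 ratios of −0.09 in KO_2 and −0.07 in KO_1. The rank difference followed gene number less, with −0.308 in KO_2 and −0.0967 in KO_1. On chromosome 4 alone, where genes crowd in the distal part, the rank difference of KO_2 had an r of −0.587 over 14 windows, and on chromosomes 3 and 15 it had 0.0847 and −0.175. These are descriptions, since windows share libraries and neighbours share sequence composition.

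D5 of KO_2 was not used to choose the chromosomes, and 11857 regions called in the 4 WT and 2 KO_2 libraries were ranked anew, 626 on chromosome 3, 739 on chromosome 4 and 792 on chromosome 15. Chromosome 3 had mean ranks of 55.5 in CTL and 55.4 in MR in KO_2, and 50.6, 50.8, 49.8 and 50.6 in WT. The difference was 4.98 points, higher than both WT libraries in 2 of 2 media. Chromosome 15 had 56.8 in both media in KO_2 and 53.1 to 53.9 in WT, a difference of 3.21 points, also in 2 of 2 media. For each, the one-sided exact permutation test of the KO label within medium gave p = 0.111, adjusted 0.167 over 6 tests, and 0.111 is the smallest p that its 9 arrangements allow. The test could not reach 0.05.

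Chromosome 4 had 49.7 and 49.3 in KO_2 at D5 and 49.4 to 50.3 in WT, a difference of −0.286 (exact permutation p = 0.333, adjusted 0.400). The parts on either side of 110 Mb again lay apart: the 337 regions before it were 4.03 and 3.12 points above WT in CTL and MR, and the 402 regions from it on differed by −2.97 and −4.07, with gaps between WT replicates of at most 0.844. At D5 chromosome 3 was number 2 and chromosome 15 number 4 of 20. Chromosome X was first with a difference of 6.58 over 157 regions (WT 39.7 to 42.9, KO_2 47.7 and 47.8), and its mean difference at D0 and D1 was −0.0583.

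The windows of KO_2 kept their sign at D5 in most places. Of 32 member windows with enough regions at both times, 29 had the same sign, with a Pearson r of 0.739 between the D0 and D1 mean and the D5 mean. Over 193 windows of the genome 148 had the same sign and r was 0.697. By chromosome, r was 0.642 on chromosome 3 (11 of 11 with the same sign), 0.850 on chromosome 4 (11 of 12) and 0.471 on chromosome 15 (7 of 9). On chromosome 3, 8 of 11 windows were raised at D5, on chromosome 15, 6 of 9, and on chromosome 4, 6 of 12 were raised and 4 lowered, against 31.6% raised and 33.7% lowered of 193. Among its 11 windows with enough regions, chromosome 3 had no mean below 1.26 (the 120 to 130 Mb window). Its 0 to 10 Mb window, with a mean difference below 0 before (−2.23), had too few ranked regions at D5. So did the 30 to 40 Mb window of chromosome 4, lowered before, and neither enters the counts of equal sign. Chromosome 15 was less even than before, with −5.98 at 20 to 30 Mb and −2.02 at 100 to 110 Mb against 9.12 at 0 to 10 Mb. On chromosome 4 the 110 to 120 Mb window, lowered before, was raised at D5 (3.68), the 4 windows from 120 Mb on were lowered, and the last ended at −10.2. Among single ranked regions at D5, 32.7% on chromosome 3, 25.7% on chromosome 4 and 30.4% on chromosome 15 lay above both WT libraries in both media, against 25.4% over the genome.

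**Figure D4:**
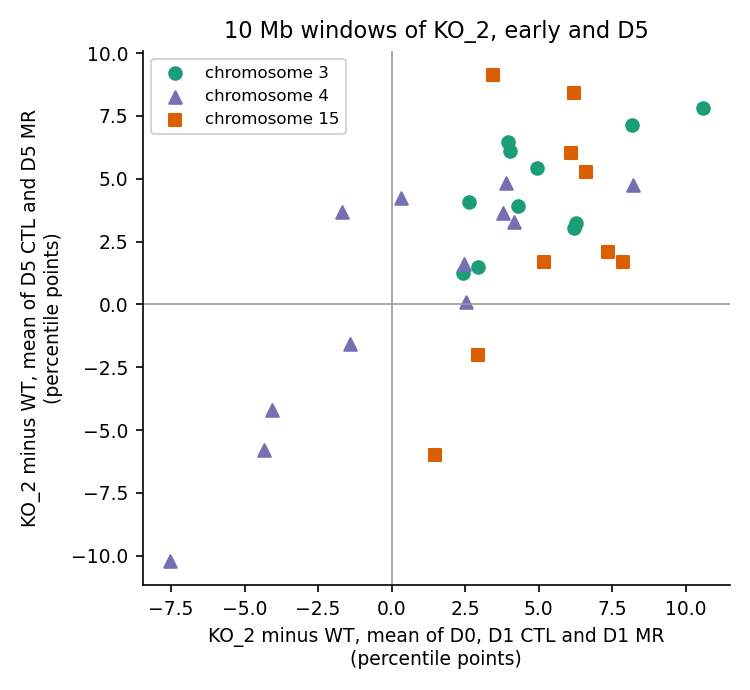
Difference between KO_2 and the WT mean (percentile points) in 10 Mb windows at D0 and D1 (x axis, mean of 3 conditions) and at D5 (y axis, mean of 2 media). Each point is 1 of 32 windows of chromosomes 3, 4 and 15; the 2 axes use different WT and KO_2 libraries. Windows of chromosome 3 lie in the upper right, and the 4 distal windows of chromosome 4 that were lowered at D5 lie in the lower left.

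Shares at D5 told chromosomes 3 and 15 apart. Chromosome 3 held 6.01% of the peaks of KO_2 in CTL and 6.09% in MR, against 4.72% to 4.81% in WT, a log2 ratio of 0.34 in both media (exact permutation p = 0.111, adjusted 0.167). All 14 of its windows had a higher share in both media, against 37.7% of 228 windows, 7 of 14 on chromosome 4 and 6 of 10 on chromosome 15. Chromosome 15 held 6.34% in CTL, with a Wilson 95% interval that overlapped those of both WT libraries (6.28% and 6.30%), and 6.81% in MR, against 5.79% and 5.81% (mean log2 ratio 0.12, exact permutation p = 0.111, adjusted 0.167). Chromosome 4 held 6.23% and 6.36%, against 6.15% to 6.34% in WT (log2 ratio 0.01, p = 0.778 by the same exact test of a lower share, adjusted 0.778). The share of gene-end peaks moved with these lists: 27.9% in KO_2 in CTL against 34.7% and 35.2% in WT, and 31.6% in KO_2 in MR against 25.2% and 25.9%. Its part in the shares was not tested.

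The D5 lists of KO_1 held 75 of 644 peaks on chromosome 15 in CTL (11.6%, Wilson 95% interval 9.39% to 14.4%) and 159 of 1881 in MR (8.45%, 7.28% to 9.80%). These shares exceed those of whole WT lists, but a short list holds only strong peaks. Among the 644 strongest peaks of the other lists, chosen as an added comparison after the lists were seen, WT held 11.8% and 10.7% on chromosome 15 and KO_2 12.7%. Among the 1881 strongest in MR, WT held 8.93% and 9.04% and KO_2 9.89%. At equal length KO_1 was therefore within or just below the other lists on chromosome 15. On chromosome 4 it held 7.45% and 7.23%, against 5.90% in both WT lists in CTL and 6.38% and 6.17% in MR, with overlapping intervals. On chromosome 3 it held 3.57% and 4.36%, against 4.503% and 5.43% in CTL and 5.26% and 5.48% in MR. Of its peaks on the 3 chromosomes, 96.0% to 100% fell in regions that both WT libraries of the medium also called.

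Methionine restriction and time in culture were compared by the share of peaks, in 9 tests. MR against CTL within genotype, line and day gave log2 differences of 0.02 on chromosome 3, 0.01 on chromosome 4 and −0.00393 on chromosome 15 (exact permutation p = 0.0833, 0.0833 and 0.917, adjusted 0.188, 0.188 and 1, two-sided, with the same sign in 4, 4 and 2 of 5 strata). D5 against D1 gave 0.00, 0.02 and 0.05 (exact permutation p = 0.917, 0.125 and 0.0278, adjusted 1, 0.225 and 0.188, in 2, 3 and 3 of 4 strata). D1 in CTL against D0 gave 0.00, −0.01 and −0.06 (exact permutation p = 1, 0.417 and 0.0833, adjusted 1, 0.625 and 0.188), where 0.0833 is the smallest p that 24 arrangements allow. None of the 9 passed an adjusted threshold of 0.05. On chromosome 15, for example, the share in WT at D5 was 6.28% and 6.30% in CTL and 5.79% and 5.81% in MR, whereas KO_2 went from 6.34% to 6.81%.

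Genes with roles in muscle, the cell cycle and chromatin were read at their gene-end regions, 16 on chromosome 3, 18 on chromosome 4 and 20 on chromosome 15, listed for what they do. All 12 D0 and D1 libraries had a gene-end peak at 7, 11 and 12 of them. For 3, 4 and 2 none was called in any of the 20 lists: the splicing regulator Mbnl1, the muscle enzyme gene Ampd1 and the adhesion gene Vcam1 on chromosome 3, the myogenic factor Pax7, the Notch target Heyl and the cell cycle inhibitors Cdkn2a and Cdkn2b on chromosome 4, and the stress factor Atf4 and the cohesin gene Rad21 on chromosome 15.

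The gene ends of these listed genes moved in both directions. A ranked region reached to within 1 kb of an end of 8, 11 and 12 genes; the additional one on chromosome 3 is Smc4, whose merged region was called in every library while 2 KO_2 libraries had no peak of their own within that distance. Of these, 3, 2 and 1 were raised in KO_2 and 1, 4 and 3 lowered, where 18.7% of all ranked regions were raised and 17.8% lowered. In KO_1 0, 1 and 0 were raised and 1, 1 and 4 lowered, where 17.4% of all were raised and 17.2% lowered. The median differences of KO_2 were 1.52, −11.3 and −0.0204 points, and those of KO_1 0.853, −5.37 and −3.05. Over all ranked gene-end regions of the 3 chromosomes, the mean differences of KO_2 were 1.53, −3.17 and 3.65 points, against −2.98 over all gene-end regions of the genome. On chromosome 3 the raised genes were Postn, a matrix protein gene (9.73 points), Lmna, which encodes nuclear lamins (3.35), and Ccna2, which encodes a cyclin of S phase (1.91). Mef2d, a muscle transcription factor gene, was lowered in both lines, with ranks of 22.7, 72.7 and 31.6 in KO_2 and 63.4, 50.6 and 39.3 in KO_1, against 65.7 and 78.8 at D0, 79.5 and 81.4 in CTL, and 42.8 and 54.4 in MR in WT.

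On chromosome 4, Tpm2, which encodes a muscle tropomyosin, had ranks of 95.7, 85.5 and 94.4 in KO_2, against 49.7 to 83.3 in WT and 42.0 to 73.3 in KO_1. Its region (chr4:43521654-43522669) was the most raised of the chromosome's listed genes in KO_2, by 27.4 points. The cell cycle inhibitor Cdkn2c was lowered in KO_2, at 15.3 at D0, 52.1 in CTL and 6.86 in MR, against 39.9 and 46.5, 53.3 and 53.0, and 59.2 and 60.4 in WT, as were Id3, an inhibitor of myogenic factors, Tnc, a matrix gene, and Cdc42 (differences −13.6, −20.7 and −30.7). Tnc was lowered in KO_1 as well (−19.0). Mtor, the kinase of the nutrient-sensing pathway, was raised in KO_1, at 97.8, 94.6 and 95.2 against 85.6 to 92.8 in WT.

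On chromosome 15, Ep300 was raised in KO_2, and Ptk2, which encodes focal adhesion kinase, Myo10 and Wnt7b were lowered (−29.3, −26.7 and −29.1). Myo10 and Wnt7b, a Wnt ligand gene, were lowered in both lines (−7.99 and −53.4 in KO_1). KO_1 ranked Wnt7b at 28.8, 28.0 and 23.2, where WT had 91.4 and 81.1 at D0, 95.9 and 95.04 in CTL, and 49.1 and 67.6 in MR. Itga5 was lowered in KO_1 (−20.9) and not in KO_2 (4.80). The gene of the proliferation factor Myc had 36.8, 58.3 and 30.8 in KO_1, below both WT libraries of each condition, and 52.6, 50.01 and 69.7 in KO_2. Sdc2, a proteoglycan gene, had 99.9 as its lowest rank over the 12 libraries.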

How the data were processed

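ATAC-seq libraries of 20 samples were analysed, 1 deposited broadPeak list each, called per library. Lysed cell pellets were treated with transposase and amplified with 10 cycles, per the labels' protocols. The build was GRCm38, per the submitters' processing notes. The aligner, peak caller and filters are not given in the sources used here, and read totals were not used here. The deposited columns, per the file values, were a score, a fold enrichment (ratio) and a −log10 p and q-value per peak, all the authors' own. The lowest −log10 q-value was 1.00.

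Peaks (787806) were merged at 1 bp overlap. A region's value was the largest −log10 p of the library's overlapping peaks, ranked as a percentile over regions called in all libraries compared. Gene ends came from 21631 RefSeq protein-coding genes (GRCm38.p6), and all 64 listed symbols matched. Groups came from titles. Tests were exact permutations within strata with Benjamini-Hochberg adjustment. No list was identical to another. The steps were tested on simulated data. Members, gene lists and tests were chosen with earlier results of these data known. Named windows were the highest and lowest per chromosome and line, and named regions the 4 most raised in both lines and the 2 strongest called only in KO, per chromosome. Promoters of chromosome 18 were left out of the motif shares. Printed promoters were chosen after their values were seen, as the most raised listed gene of a chromosome in KO_2 (and on chromosome 4 the most lowered) whose promoter overlapped its region. Analyses used Python 3.11.15, pandas 2.3.3, numpy 2.4.6, scipy 1.17.1 and matplotlib 3.10.9.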

Additional observations from a re-analysis of the deposited data

Results flagged for a closer look

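Chromosome 4, taken as a whole, differed in sign between the 2 KO lines at D0 and D1. Its mean rank difference was 3.21 in KO_1 and −0.584 in KO_2, and its log2 share ratio was 0.0518 and −0.0227. In both measures each KO_1 library lay above the WT mean of its condition and each KO_2 library below it. Before 110 Mb, a border set after seeing the data, both lines lay above WT, by means of 4.56 in KO_1 and 2.84 in KO_2. From 110 Mb on the means were 1.99 and −3.68. The rank difference of the whole chromosome in KO_2 was −0.00381 where calls needed 50% coverage and 0.340 at a −log10 q-value from 5 up. With 1 library per line and condition the difference between lines was not tested.

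On chromosome 15 the share of peaks was lower in MR than in CTL in WT at D1 and D5, without overlap, and higher in MR in all 3 KO comparisons. In KO_2 the log2 difference was 0.0434 at D1 and 0.103 at D5, whereas KO_1 at D1 was almost level (0.00710). The effect in KO exceeded that in WT by 0.15 on the log2 scale (exact permutation p = 0.167 over 324 arrangements of genotype within day and medium, adjusted 0.667 over 6 tests added after seeing the data). On chromosome 3 the share fell from D1 to D5 in WT and rose in KO_2 in both media, a difference of 0.13 (exact permutation p = 0.593 over 81 arrangements, adjusted 0.770). Neither passed the threshold.

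The short D5 lists of KO_1, which entered no test, held 11.6% of their peaks on chromosome 15 in CTL and 8.45% in MR, above the share in whole WT lists. WT lists of equal length, holding the strongest peaks, had 10.7% and 11.8% in CTL and 8.93% and 9.04% in MR.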

How the results depend on the processing

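Rank differences at D0 and D1 are given for chromosomes 3, 4 and 15 of KO_1 and then of KO_2, against 0.584, 3.21, 2.56, 4.74, −0.584 and 5.93 as reported. Only values that moved by over 1 SD between WT replicates are named. Over whole lists, which differ in length, all ranked regions shifted by 2.497 points in KO_1 and −7.96 in KO_2, and the values were 3.25, 4.58, 3.73, −3.74, −8.56 and −2.91. Relative to that shift they were 0.751, 2.08, 1.23, 4.23, −0.596 and 5.05. Calls that needed 50% coverage gave −0.674, 3.98, 2.78, 3.83, −0.00381 and 5.77. A stricter list (−log10 q-value from 5 up) gave 0.0216, 3.68, 3.73, 3.33, 0.340 and 6.85, and 0.381 for chromosome 4 of KO_2 at D5. Ranks of fold enrichment gave 0.805, 2.67 and 1.49 in KO_1 and 4.33 for chromosome 3 of KO_2. Regions away from gene ends, ranked anew among themselves, gave 3.62 and 2.95 for chromosomes 4 and 15 of KO_1 and −0.783 and 5.34 in KO_2. Gene-end regions ranked anew among themselves, added after seeing the data, gave 2.39 and 2.26 in KO_1 and 4.49, −0.201 and 6.46 in KO_2. Without the D0 libraries, also added, chromosomes 3 and 15 of KO_1 gave 1.24 and 3.29 and chromosome 15 of KO_2 6.13. So chromosomes 3 and 15 of KO_2 and chromosomes 4 and 15 of KO_1 kept their sign in all of these settings once the whole-list shift is taken off, whereas the small differences of chromosome 3 in KO_1 and chromosome 4 in KO_2 turned. The causes were not tested.

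The percent of windows raised on chromosome 4 of KO_2 (42.9%) was 21.4% by fold enrichment, 25.0% at 50% coverage, 15.4% away from gene ends and 26.3% in 5 Mb windows. On chromosome 4 of KO_1 (42.9%) it was 21.1% in 5 Mb and 75.0% in 20 Mb windows and 64.3% without D0. On chromosome 3 of KO_1 (3 of 15 windows) it was 10.0% at the stricter q-value, 12.5% in 20 Mb windows, 33.3% with at least 50 regions per window and 53.3% without D0. On chromosome 15 of KO_1 (27.3%) it was 12.5% at 50% coverage, 16.7% at gene ends, 72.7% without D0 and 27.3% to 45.5% without 1 WT replicate, the higher value without replicate 1. Over all windows of the genome, 33.1% were raised in KO_2 and 21.6% in KO_1 as reported, and 39.8% in KO_1 without D0. Genome shares for the other settings are not given here. Under those settings the percents cannot be read as above or below the genome.

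The log2 share ratios at the stricter q-value were 0.108, 0.0900 and 0.0632 for chromosomes 3, 4 and 15 of KO_1 and 0.282 and 0.283 for chromosomes 3 and 15 of KO_2. Among the 20000 strongest peaks they were 0.0690, 0.127 and 0.0899 in KO_1, 0.290 and −0.0148 for chromosomes 3 and 4 of KO_2, and −0.00877 for chromosome 4 of KO_2 at D5. By covered base pairs they were 0.0751 and 0.0239 for chromosomes 4 and 15 of KO_1 and 0.238 and 0.234 for chromosomes 3 and 15 of KO_2. Without D0, chromosome 4 of KO_2 had −0.0109. At D5 it ranged from −0.00460 to 0.0197 without 1 WT replicate, negative without replicate 2.

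Contrasts of medium and day turned sign where they were near 0, and none passed the adjusted threshold in any setting. MR against CTL on chromosome 15 was 0.00132 at the stricter q-value and 0.00318 among the 20000 strongest peaks. D5 against D1 was −0.00309 on chromosome 15 among the strongest peaks, −0.00499 on chromosome 4 by base pairs, and on chromosome 3 −0.0604 without KO_2 and −0.00514 to 0.0116 without 1 WT replicate. D1 against D0 was −0.00881 and 0.00199 on chromosomes 3 and 4 at the stricter q-value, −0.00584 and 0.0185 among the strongest peaks, and on chromosome 3 −0.00707 by base pairs, −0.0227 without KO_1 and −0.00569 to 0.00759 without 1 WT replicate. WT libraries with the same number deviated together (r over 0.1) in 3 of 10 pairs of conditions, with r from −0.644 to 0.506. With values so far apart, these pairs cannot tell whether libraries of the same number share a batch. The replicate block changed no call: D5 against D1 on chromosome 15 with the replicate block stayed at 0.0534 (exact permutation p = 0.0625, adjusted 0.234), and the adjusted p over all 9 contrasts was at least 0.234. The D5 lists of KO_1 were too short to give ranks, and read totals were not used here.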
